A study of Homo sapiens with 6 samples.

Results

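The protein genes of the cytosolic ribosome were examined in RPMI-8402 cells, a line established from human T-cell acute lymphoblastic leukaemia (T-ALL). Members were chosen by symbol. A probe of the array was taken when the RefSeq accession given for it belonged to a protein-coding gene named RPL or RPS and a digit, or to RPSA, RPLP0, RPLP1 or RPLP2, and the RPS6K kinases and pseudogenes were left out. The rule named 91 symbols, of which 89 had a probe among the 57176 probes of the array and 87 had a probe that was tested. The tested genes comprised 31 proteins of the small (40S) subunit, 46 of the large (60S) subunit and 8 paralogs, which are additional copies such as RPL22L1. The letters of the rule also took in a readthrough transcript, RPL36A-HNRNPH2, and RPS19BP1, which is not a ribosomal protein but binds RPS19. No value is given for the 2 Y-linked members.

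All cells were RPMI-8402 cells that had been transduced with lentivirus and sorted for EGFP, the marker carried by the vector, 48 h later. The 3 groups received a control short hairpin RNA (control), a hairpin against GATA3 (shGATA3) or hairpin RNA against TCF7, the gene that encodes TCF1 (shTCF1). Each group held 2 samples, each on 1 one-colour array, and all came from a single line. The study lists 1 hairpin against GATA3 and none against TCF7, so the number of hairpins used against TCF7 is not known. The study describes these array data as averages of independent experiments, and the labels do not tie an array to an experiment. The p-values measure the spread between the 2 samples of a group only.

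Every ribosome carries one copy of nearly all of these proteins, which makes their mRNAs some of the most abundant and most evenly produced in a growing cell. Most of these mRNAs begin with a C followed by a run of pyrimidines, the terminal oligopyrimidine (TOP) tract, through which mTOR signalling and LARP1 control their translation together. In T-ALL, RPL5 and RPL10 are recurrently mutated and RPL22 is recurrently deleted, and loss of RPL22 is known to raise its paralog RPL22L1.

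The start of the transcripts was read from RefSeq (GRCh38.p14) for the 69 tested members that its promoter table held. A C followed by at least 4 pyrimidines, with the C at the annotated start or within 10 bases of it on the coding strand, was found in 58 of them, which is 84.1%. The share was 91.7% of 24 40S genes, 86.8% of 38 60S genes and 33.3% of 6 paralogs, and 33.3% of all 27305 promoters held the same letters. The windows below run from 10 bases before the annotated start to 20 bases from it, with the tract in capitals. They are shown because the genes that the results turn on include starts with and without a tract by this rule. The rule reads letters only and does not show that an mRNA begins with a TOP tract. For RPL10 the letters begin at −7 from the annotated start and are 5 long, so they lie wholly before it.
RPL21 (chr13:27251548-27251577, plus strand): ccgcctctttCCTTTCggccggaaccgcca
RPL10 (chrX:154398055-154398084, plus strand): ccaCTCTCagaaatatacgtctgtcacagt
RPL36A and RPL36A-HNRNPH2 (chrX:101391001-101391030, plus strand): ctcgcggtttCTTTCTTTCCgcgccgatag
RPL22 (chr1:6199576-6199605, minus strand): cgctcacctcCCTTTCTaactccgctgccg
RPL22L1 (chr3:170870176-170870205, minus strand): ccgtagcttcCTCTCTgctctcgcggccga
RPS14 (chr5:150449720-150449749, minus strand): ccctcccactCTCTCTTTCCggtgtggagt
RPS19 (chr19:41860245-41860274, plus strand): ccccgtcgttCCCTTTCCCCTggctggcag
RPL7L1 (chr6:42879606-42879635, plus strand): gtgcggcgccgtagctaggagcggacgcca
RPS27L (chr15:63157458-63157487, minus strand): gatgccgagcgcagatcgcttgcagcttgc
RPL22 and RPL22L1 both start with a tract, whereas the windows of the paralogs RPL7L1 and RPS27L hold none by this rule.

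The arrays were first checked against their labels. At its only tested probe GATA3 was not lower on the arrays labelled shGATA3, where its level of 9.50 ± 0.064 (SD, n = 2) stood beside 9.55 ± 0.011 (SD, n = 2) in control on the normalized log2 scale (adjusted p 0.795 in limma). It was −0.33 there from its level on the shTCF1 arrays, which was not called (adjusted p 0.136 in limma). The group is therefore called the arrays labelled shGATA3, and no direction below refers to a measured loss of GATA3. TCF7 was lower on the arrays labelled shTCF1, by −1.31 (SE 0.098, adjusted p 0.00393 in limma) at its brighter probe. All 13 T-ALL markers cleared background on all 6 arrays. So did 2 of 4 B-cell, 2 of 3 erythroid, 2 of 3 myeloid, 1 of 4 NK-cell and 1 of 4 stromal markers with a probe. All arrays lay on 1 slide. Both control arrays lay in row 2 of it and all 4 hairpin arrays in row 1, so that position and hairpin cannot be told apart in any comparison with control.

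Ribosomal protein genes were among the brightest probes of the array. Only the brightest probe of each gene was counted here. All 87 tested genes cleared background on each of the 6 arrays, 82 of them (94.3%) lay in the brightest 10% of tested probes, and they filled 39 of the 100 brightest places. Together they held 12.5% of the summed signal of all tested probes on either control array, 12.4% and 13.7% on those labelled shGATA3, and 13.2% and 13.6% on those labelled shTCF1. Thus both shTCF1 arrays lay above both control arrays, whereas shGATA3 array 1 lay below them and shGATA3 array 2 was the highest of all. The median deviation of the members from their own 6-array mean followed the same order of groups but not of single arrays. Its log2 values were −0.11 and −0.12 in control, −0.093 and 0.14 in shGATA3 and 0.020 and 0.18 in shTCF1. By this measure shGATA3 array 1 lay above both controls and shTCF1 array 2 was the highest.

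**Figure D1:**
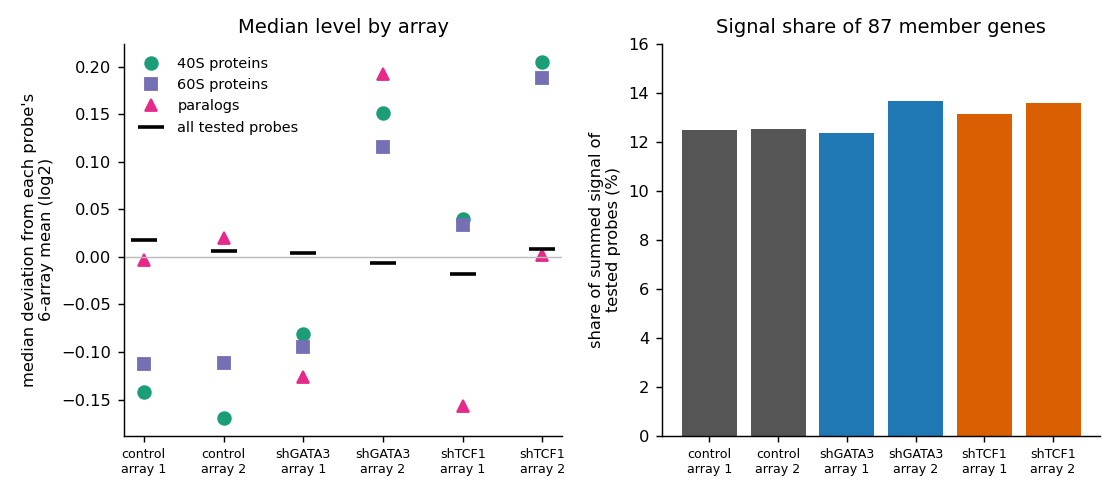
Left, median deviation of each class of ribosomal protein gene from its 6-array mean, in log2 units, on each array, with the median over all tested probes as a bar; right, share in percent of the summed signal of tested probes held by the brightest probes of the 87 members. The 40S and 60S medians lie below 0 on both control arrays and on shGATA3 array 1 and above 0 on the other three arrays, while the paralogs do not follow that order.

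On the arrays labelled shGATA3, no ribosomal protein gene passed the test against control. Limma called 0 of 87 members at an adjusted p below 0.05, and 9 members had an unadjusted p below 0.05, 6 of them higher. Over all 31134 tested probes 6.84% were called and 26.5% had an unadjusted p below 0.05, and 5.36% of the brightest 10% of probes were called. The median difference from control was 0.14 over the members, 0.21 over the 40S genes and 0.13 over the 60S genes, against −0.011 over all tested probes and 0.039 over the brightest 10%. Both arrays lay above both controls for 43 members and below them for 7, where the same held for 29.1% and 31.1% of all tested probes. This median followed the array and the normalization. It was 0.27 without shGATA3 array 1 and 0.029 without shGATA3 array 2, and it turned to −0.040 after quantile normalization, with 29 of 87 members above 0 instead of 71.

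On the arrays labelled shTCF1, 4 ribosomal protein genes were higher than in control and 1 was lower. These 5 of 87 members compare with 16.9% of all tested probes called, 7.21% higher and 9.73% lower, and with 13.3% of the brightest 10% of probes. A further 25 members had an unadjusted p below 0.05 without being called, since 30 of 87 did in all, beside 35.0% of all tested probes, so that this count lay at the background. The median difference was 0.23 over the members, 0.26 over the 40S genes, of which 30 of 31 lay above 0, and 0.20 over the 60S genes, against −0.019 over all tested probes and 0.047 over the brightest 10%. Both arrays lay above both controls for 63 members and below them for 9, beside 31.8% and 35.1% of all tested probes. After quantile normalization, which gives every array the same set of values, the median over the members turned to −0.043. The median was then 0.020 over all tested probes and −0.035 over the brightest 10%. After 75th percentile scaling the member median was 0.28. Among all called probes the share that was higher was 42.6% after the main normalization, 53.3% after quantile normalization and 54.8% after 75th percentile scaling in this comparison, and 42.1%, 53.0% and 53.6% for the arrays labelled shGATA3.

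**Figure D2:**
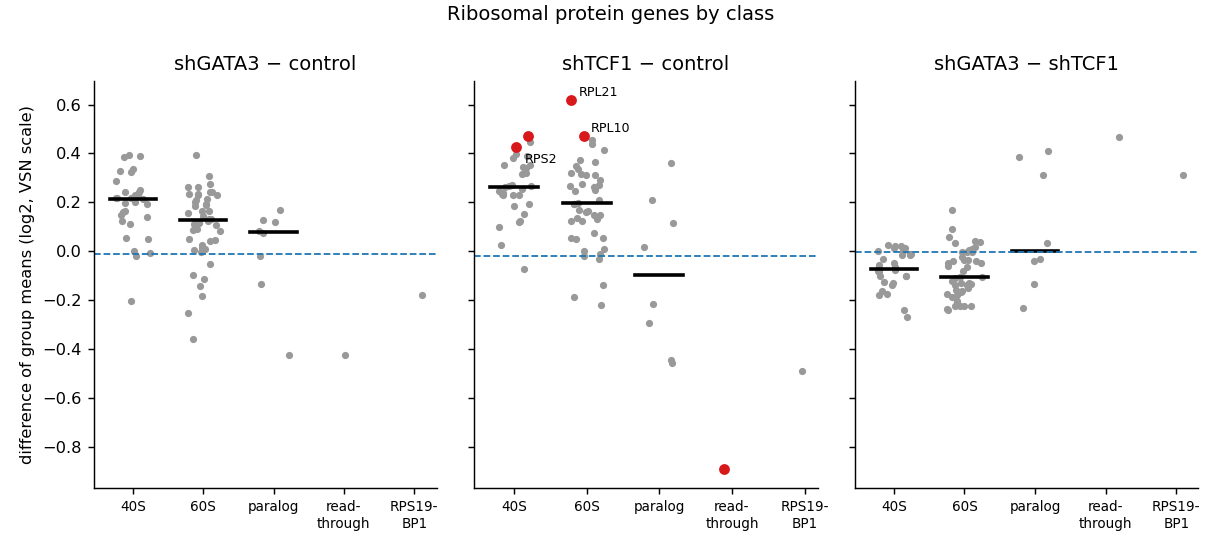
Difference of group means in log2 units for each of the 87 members (points) in the 3 comparisons, by class, with the class median as a black bar and the median over all tested probes as a dashed line. Red points passed the test, among them RPL21, RPS2, RPL10 and the probe assigned to the readthrough RPL36A-HNRNPH2, all on the arrays labelled shTCF1.

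RPL21, a protein of the 60S subunit, showed the largest rise among the brightest probes of the called members. Its brightest probe read 16.96 and 16.96 in control, 17.31 and 17.40 in shGATA3 and 17.50 and 17.67 in shTCF1, so that the groups did not overlap. The difference between shTCF1 and control was 0.62 (SE 0.11, adjusted p 0.0190 in limma), a fold of 1.54, and that between shGATA3 and control was 0.39 (adjusted p 0.0864). RPL21 was the member with the most tested probes, and all 9 were above control on the shTCF1 arrays, by 0.31 to 0.62, with 3 of them called. Its call was kept after quantile normalization with a difference of 0.37, and it was lost without control array 1, without control array 2 or without shTCF1 array 2 (adjusted p 0.0705 to 0.100).

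RPS2, a protein of the 40S subunit that lines the entry of the mRNA, had a similar pattern. Its brightest probe read 18.19 and 18.09 in control, 18.41 and 18.51 in shGATA3 and 18.50 and 18.63 in shTCF1, so that all 4 hairpin arrays lay above both control arrays. The shTCF1 difference was 0.43 (SE 0.11, adjusted p 0.0476 in limma). The rise did not hold after quantile normalization, which gave −0.13, and the other 2 probes of RPS2 had differences of −0.18 and −0.20 that were not called.

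RPL10 joins the 60S subunit last and is needed for it to pair with the 40S subunit. Its brightest probe read 16.85 and 16.83 in control, 17.04 and 17.26 in shGATA3 and 17.24 and 17.38 in shTCF1, again without overlap with control. The shTCF1 difference was 0.47 (SE 0.12, adjusted p 0.0477 in limma), and it was 0.18 (adjusted p 0.213) after quantile normalization. The 3 other RPL10 probes were 0.18, 0.30 and 0.77 above control, and the last of these, a dim probe, was called (adjusted p 0.0255). Without any one of the control or shTCF1 arrays the calls of RPS2 and RPL10 were lost, and that of RPS2 was also lost without either array labelled shGATA3 (adjusted p 0.0585).

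The one called fall belonged to the probe assigned by its accession to the readthrough transcript RPL36A-HNRNPH2. Its probe read 11.34 and 11.00 in control, 10.58 and 10.91 in shGATA3 and 10.32 and 10.23 in shTCF1, and the shTCF1 difference was −0.89 (SE 0.17, adjusted p 0.0225 in limma), a fold of 0.538. RPL36A itself, measured by its own probe, was 0.26 above control (adjusted p 0.157). HNRNPH2, an RNA-binding protein gene that is no ribosomal protein, was −0.37 from control at its own probe (adjusted p 0.0674), so that the readthrough probe and its downstream partner were both below control. Probe sequences were not available, so signal from the readthrough, from RPL36A and from HNRNPH2 at the readthrough probe cannot be told apart. The call of the readthrough probe was kept under every other normalization of the scanner values and lost without control array 1, without shTCF1 array 1 or without shTCF1 array 2 (adjusted p 0.0774 to 0.103).

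**Figure D3:**
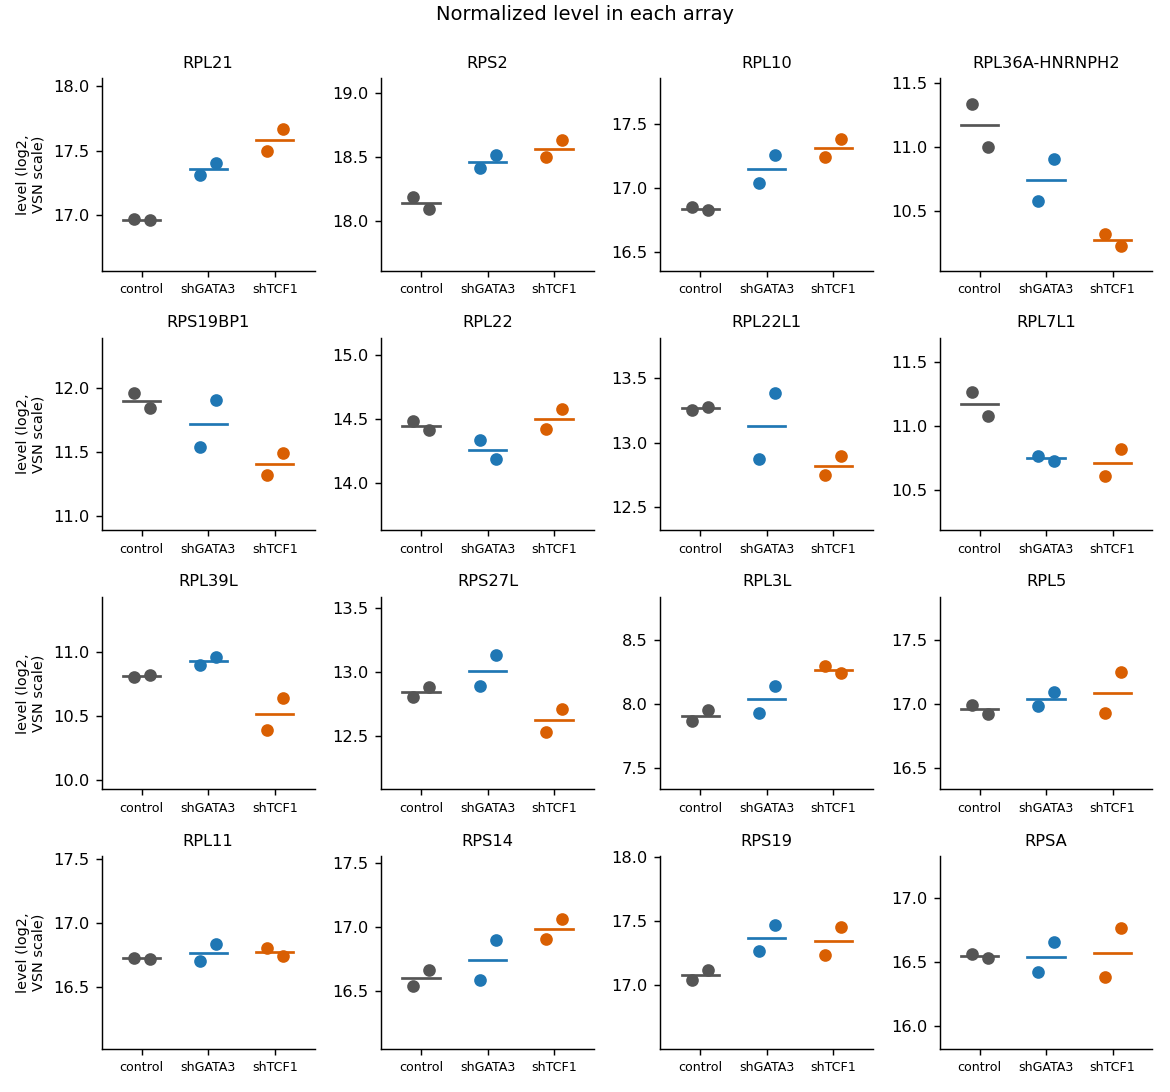
Normalized log2 level of 16 named members on each of the 6 arrays (points) with the mean of each group of 2 (lines); every panel spans 1.5 log2 units. RPL21, RPS2 and RPL10 lie higher on all 4 hairpin arrays than on the control arrays, RPL7L1 lies lower on all 4, and RPL39L and RPS27L lie below control on the shTCF1 arrays only.

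The 8 paralogs had a median difference from control of 0.078 in shGATA3 and of −0.10 in shTCF1, with 4 of them above 0 in the latter. Limma called 0 of them in any comparison, and 1, 4 and 2 had an unadjusted p below 0.05 in shGATA3 and shTCF1 against control and between the hairpins, where 26.5%, 35.0% and 23.4% of all tested probes did. RPL7L1, a copy of RPL7 that takes part in making the large subunit, read 11.27 and 11.08 in control, 10.77 and 10.73 in shGATA3 and 10.61 and 10.82 in shTCF1. It was thus lower on all 4 hairpin arrays, by −0.42 (adjusted p 0.101 in limma) and −0.46 (adjusted p 0.0564), and it was called on the shTCF1 arrays under 4 of 16 alternatives, whose adjusted p values ran from 0.0141 to 0.541. RPL22L1 read 13.25 and 13.28 in control, 12.88 and 13.39 in shGATA3 and 12.75 and 12.89 in shTCF1. Its shTCF1 difference of −0.45 (SE 0.18) was not called (adjusted p 0.140, and 0.0151 to 0.542 over the alternatives), and the 2 arrays labelled shGATA3 lay on either side of control.

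RPL39L and RPS27L lay above control on both arrays labelled shGATA3 and below it on both shTCF1 arrays. RPL39L, whose known expression is highest in testis, read 10.80 and 10.82 in control, 10.90 and 10.96 in shGATA3 and 10.40 and 10.64 in shTCF1, and RPS27L, a known p53 target, read 12.80 and 12.88, then 12.89 and 13.13, then 12.53 and 12.71. In the direct comparison RPL39L was 0.41 higher on the arrays labelled shGATA3 (SE 0.12, adjusted p 0.106 in limma, and 0.0176 to 1.000 over the alternatives). RPS27L was 0.39 higher there (SE 0.13, adjusted p 0.148, and 0.0342 to 1.000 over the alternatives). Neither was called, although for both genes all 3 groups were without overlap. RPL3L, which is known from striated muscle, had a difference of 0.36 on the shTCF1 arrays (adjusted p 0.0826), while RPL10L, RPL26L1 and RPL36AL had shTCF1 differences of 0.21, 0.11 and 0.018. RPL10L and RPL10 are near-identical copies, as are many members and their processed pseudogenes, and signal from such copies at one probe cannot be told apart here.

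RPL22 did not pass the test at its brightest probe, which read 14.48 and 14.41 in control, 14.34 and 14.19 in shGATA3 and 14.42 and 14.58 in shTCF1. The differences were −0.19 (adjusted p 0.347 in limma) and 0.053 (adjusted p 0.765). A second, dimmer RPL22 probe gave −0.62 (adjusted p 0.0581) and −0.64 (adjusted p 0.0339, called), so that the 2 probes of this gene disagreed on the shTCF1 arrays. The members whose pattern over the 6 arrays was most like that of RPL22L1 were RPS19BP1 (Pearson r 0.966), RPL17 (0.870), RPL36A-HNRNPH2 (0.836), RPS27L (0.779) and RPL39L (0.723), given as a description over 6 arrays that share their groups. RPS19BP1, which binds RPS19 and stimulates SIRT1, was −0.49 from control on the shTCF1 arrays (adjusted p 0.0787), and RPL17 was −0.14.

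RPL5, RPL11, RPS14, RPS19 and RPSA, which are all known from inherited or acquired disease, did not pass the test at their brightest probes. RPL5 and RPL11, which bind MDM2 together with 5S rRNA when ribosome assembly fails, had shTCF1 differences of 0.13 (SE 0.14) and 0.049 (SE 0.10), and differences of 0.081 and 0.045 on the arrays labelled shGATA3. RPS14, which is lost in the 5q deletion of myelodysplasia, read 16.54 and 16.67 in control, 16.59 and 16.90 in shGATA3 and 16.91 and 17.06 in shTCF1, a difference of 0.38 for shTCF1 (adjusted p 0.115). RPS19, the gene most often mutated in Diamond-Blackfan anaemia, was 0.29 and 0.27 above control (adjusted p 0.222 and 0.198), and all 4 hairpin arrays lay above both controls. RPSA, mutated in isolated congenital asplenia, was −0.0083 and 0.025 from control.

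Different probes of 1 gene often disagreed. Of the 38 genes with several tested probes, 25 had all probes on the same side of control in shGATA3 and 24 in shTCF1. No gene had probes called in opposite directions. Over all 157 tested member probes limma called 0 higher and 1 lower in shGATA3 and 8 higher and 3 lower in shTCF1. Of all 31134 tested probes 6.84% were called in shGATA3, and 7.21% higher and 9.73% lower in shTCF1. The 1 probe called lower in shGATA3 was a dim probe of RPL37, at −0.64 (adjusted p 0.0251 in limma) and −0.47 on the shTCF1 arrays (adjusted p 0.0331). The brightest probe of RPL37, which stood for the gene elsewhere, was 0.23 and 0.19 above control (adjusted p 0.412 and 0.435). Probes of this gene thus disagreed, and RPL37 was named after its values were seen.

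No ribosomal protein gene passed the test between the 2 hairpin groups. Limma called 0 of 87 members between them and 3 had an unadjusted p below 0.05, where 6.18% of all tested probes were called, 3.63% of the brightest 10% were called and 23.4% had an unadjusted p below 0.05. The median difference of shGATA3 from shTCF1 was −0.064, with 22 of 87 above 0, and it was 0.0035 after quantile normalization and 0.032 without shGATA3 array 1. Members with and without a tract by the rule of letters above were also set side by side. On the shTCF1 arrays the median difference from control was 0.24 over the 58 with a tract and 0.15 over the 11 without, and on the arrays labelled shGATA3 it was 0.14 and 0.083. Tract and class were mixed in these sets, since 55 of 62 40S and 60S genes held a tract and 2 of 6 paralogs did. The 40S and 60S genes without a tract had shTCF1 differences of 0.46 (RPL13), 0.45 (RPS29), 0.44 (RPL15), 0.27 (RPS4X), 0.15 (RPL27), 0.0091 (RPL6) and −0.14 (RPL17). A difference by tract was not tested.

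**Figure D4:**
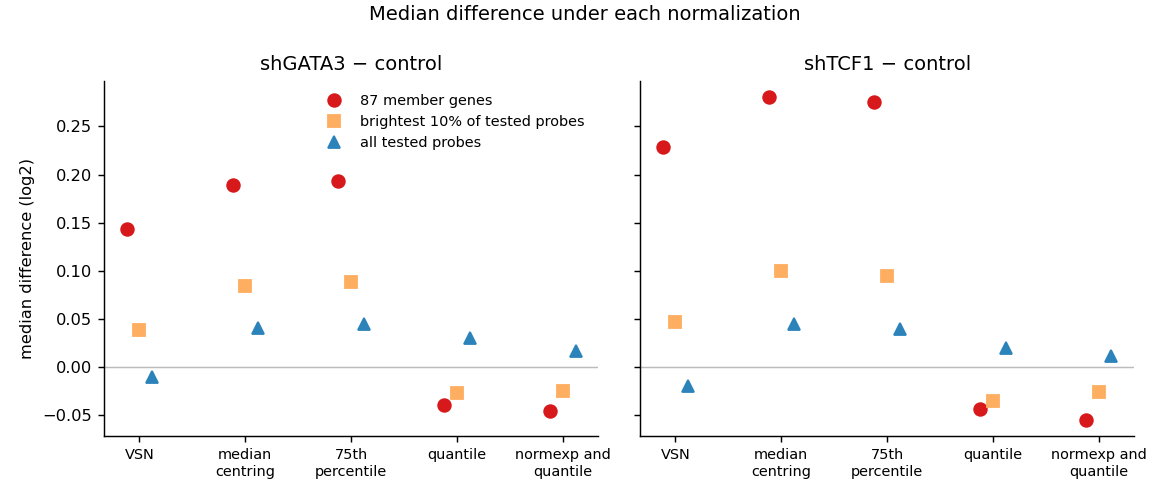
Median difference from control in log2 units over the 87 members, the brightest 10% of tested probes and all tested probes after each of 5 normalizations. The members lie above both other sets after VSN, median centring and 75th percentile scaling and below 0 after the 2 quantile-based normalizations.

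Genes that make and use the ribosome were described as lists. Of 47 ribosome biogenesis factors tested, the arrays labelled shGATA3 had 0 higher and 2 lower and the shTCF1 arrays 0 higher and 3 lower, with 37 below 0 in either comparison and medians of −0.20 and −0.16 that stayed below 0 under the 4 other normalizations of the scanner values. The called share was 4.26% and 6.38%, below the 6.84% and 16.9% of all tested probes. The number lower was 1 and 3 after 75th percentile scaling or median centring, 2 and 5 after quantile normalization and 9 and 11 after normexp with quantile normalization. The last of these settings called 4282 and 7727 of all 31134 tested probes, where the main normalization called 2130 and 5274. HEATR3, which carries RPL5 and RPL11 into the nucleus, fell by 0.86 (adjusted p 0.0137 in limma) and by 0.85 (adjusted p 0.00982). WDR75, a factor of the small subunit processome, fell by 0.55 (adjusted p 0.0391) and by 0.50 (adjusted p 0.0296), and RIOK2, a kinase of late 40S maturation, fell by 0.59 in shTCF1 (adjusted p 0.0238). Among 14 genes of RNA polymerase I, which transcribes rRNA, only POLR1B was called, and it fell by 0.55 in shTCF1 (adjusted p 0.0259), while 1 gene was called higher in shTCF1 under each of the 4 other normalizations. These calls were kept after those normalizations, except that of WDR75 in shGATA3, which was lost after 75th percentile scaling (adjusted p 0.0507) and median centring (adjusted p 0.0515).

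Each of these calls was lost without single arrays. In shGATA3, HEATR3 was not called without either control array or without shGATA3 array 2 (adjusted p 0.0605 to 0.0883), and WDR75 without any one of the 6 arrays (adjusted p 0.0572 to 0.207). In shTCF1, HEATR3 was not called without control array 1 (adjusted p 0.0611). WDR75, RIOK2 and POLR1B were not called there without any one of the control or shTCF1 arrays, with adjusted p values of 0.0671 to 0.155, 0.0603 to 0.123 and 0.0600 to 0.145.

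MYC, which drives transcription of ribosomal protein and biogenesis genes, was the one called gene among 14 regulators of TOP mRNAs and growth. It fell by 0.73 (adjusted p 0.0188 in limma) and by 0.59 (adjusted p 0.0200). This 1 gene was 7.14% of the list in either comparison, beside 6.84% and 16.9% of all tested probes. Both MYC calls were kept under the 4 other normalizations, and they were lost without either control array, without shGATA3 array 2 in the former and without either shTCF1 array in the latter. After the main normalization none of the 3 cytosolic ribosomal proteins listed outside the symbol rule, the 15 translation factors with TOP mRNAs or the 8 snoRNA host genes was called against control. After normexp with quantile normalization 1, 4 and 0 of them were lower in shGATA3 and 0, 4 and 2 in shTCF1, with 1 translation factor higher in shTCF1, and quantile normalization alone gave 1 lower translation factor in either comparison. Normexp with quantile normalization called 4282 (shGATA3) and 7727 (shTCF1) of all 31134 tested probes, where the main normalization called 2130 and 5274. The median of the translation factors in shTCF1 was 0.063 after the main and −0.11 after quantile normalization. EEF2, which moves the ribosome along the mRNA, was lower in shGATA3 than in shTCF1 by −0.58 (adjusted p 0.0475), a call that was lost after 75th percentile scaling (adjusted p 0.0595), after median centring (adjusted p 0.0603) and without any one of the 6 arrays (adjusted p 0.0820 to 0.157). Of 77 mitochondrial ribosomal proteins, which form a separate ribosome, 1 was higher and 1 lower in shGATA3 and 2 were higher and 2 lower in shTCF1, with medians of 0.051 and −0.075. The counts higher and lower were 0 and 0, and 2 and 0, after 75th percentile scaling or median centring, and 4 and 6, and 3 and 11, after normexp with quantile normalization. MRPL2 was higher by 0.52 in shGATA3 (adjusted p 0.0498), a call lost after 75th percentile scaling (adjusted p 0.0524), after median centring (adjusted p 0.0530) and without any one of the 6 arrays (adjusted p 0.0778 to 0.256). It was higher by 0.84 in shTCF1 (adjusted p 0.0105), where the call was lost without control array 1 (adjusted p 0.0634). Both comparisons share the control arrays, so their values are given side by side only.

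**Figure D5:**
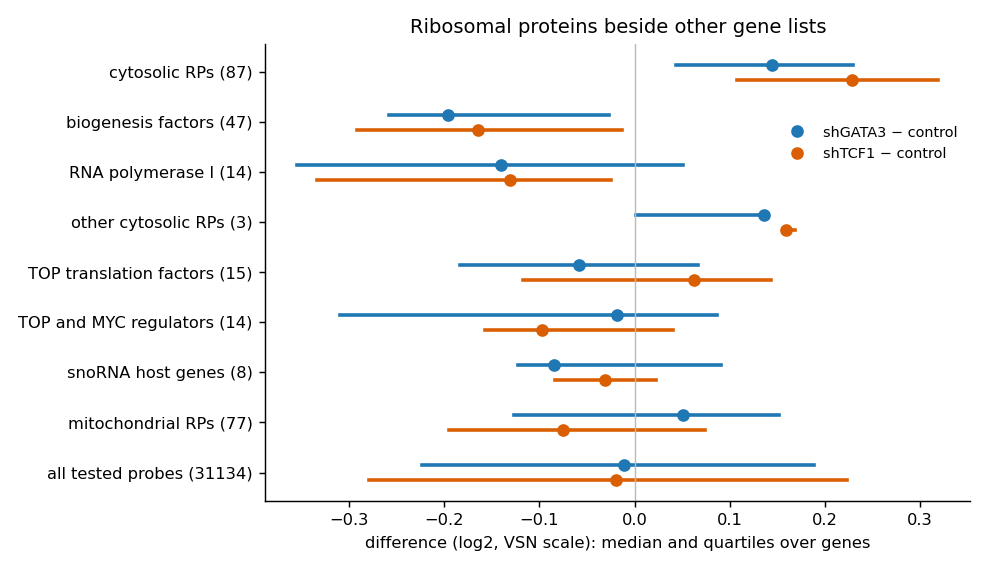
Median (points) and quartiles (lines) of the log2 difference from control over the genes of each list, with the number of genes tested in brackets, for the arrays labelled shGATA3 and shTCF1. The cytosolic ribosomal proteins lie above 0 and the biogenesis factors below 0 in both comparisons on the VSN scale, and the former, but not the latter, turn sign after quantile normalization.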

How the data were processed

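Total RNA of 6 samples (control, shGATA3 and shTCF1, 2 each, grouped by their titles) was labelled with Cy3 and hybridised to a custom Agilent array. The authors deposited, per array, intensity values that Agilent Feature Extraction (version 10.7.1.1 in the file headers, 9.1 in the submitters' processing notes) had background-subtracted without scaling between arrays. They also deposited a matrix of log2 values, described as VSN-normalized, whose scale and centring were not stated. By the correlation of deviations from the probe mean, its shTCF1 columns were closest to their own arrays (r 0.632 and 0.672). The other 4 columns were closest to the other array of their group. Their r with their own and with that array was 0.352 and 0.577 (control 1), 0.070 and 0.080 (control 2), 0.268 and 0.611 (shGATA3 1) and 0.261 and 0.304 (shGATA3 2). The matrix therefore served only as an alternative, and 0 of its columns were unused.

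Control spots and spots marked as outliers were left out, which removed 71 of 57176 probes, and spots of a probe were averaged. Intensities were normalized with the VSN model, written anew (trimming quantile 0.9, 7 iterations, 5 strata). Probes well above background on both arrays of 1 or more groups were tested, 31134 in all. Accessions without version were matched to RefSeq (GRCh38.p14), which named 25729 probes. Among the tested probes of a gene, the one with the highest 6-array mean stood for it. Differences were tested with limma 3.58.1 in R 4.3.3 (two-sided, 1 fit over 6 arrays, group as the only term, 3 residual and 2.97 prior degrees of freedom), adjusted by Benjamini-Hochberg over all tested probes and called below 0.05. With 2 arrays against 2 an exact permutation test cannot go below 0.333, and the number of arrays limits the precision. The steps were tested on simulated data.

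The members, the gene lists and the rule for named genes were chosen with earlier results of these data known. The rule took all paralogs, RPL22, RPL5, RPL10, RPL11, RPS14, RPS19 and RPSA, the called members with the largest change, and the 5 members most like RPL22L1. The values of 1 called member are not reported here. Levels of different probes were not compared. Alternatives were 75th percentile scaling, median centring, quantile normalization, normexp (offset 50) with quantile normalization, the deposited matrix, 2 other filters, an intensity trend, the 4 arrays compared alone, a replicate block, all probes of a gene and leaving out each array. Applying them to called genes of the other lists was chosen after seeing the data. Of 48 biogenesis factors, 16 translation factors and 15 regulators listed, 47, 15 and 14 were tested. B-cell, erythroid, myeloid, NK-cell and stromal markers were well above background on all arrays in 2 of 4, 2 of 3, 2 of 3, 1 of 4 and 1 of 4 cases.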

Additional observations from a re-analysis of the deposited data

How the results depend on the processing

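Counts of called members depended on the setting, and causes were not tested unless named. For shTCF1 against control, 5 calls became 12 after normexp with quantile normalization (2 higher, 10 lower), 12 with an intensity trend, 9 with only probes that cleared background on all 6 arrays, 1 without a filter, 2 over all probes of a gene and 0 with the deposited matrix. Over all tested probes 5274 calls became 7727 after normexp and 0 with the matrix. The shares over all probes with the trend and the other filters are not given here. Leaving out 1 array gave 0 to 4 calls, with 0 without control array 1 or shTCF1 array 2, and fewer samples leave less power. For shGATA3 against control 0 calls became 3 with normexp and 1 with the trend, and between hairpins 2 and 1. Over all tested probes normexp raised the calls from 2130 to 4282 for shGATA3 against control and from 1925 to 3284 between hairpins. The replicate numbers only name samples, since deviations of same-numbered arrays correlated at −0.040, −0.0098 and 0.049. With the replicate block 2 members were called for shTCF1 (RPL21 and RPL36A-HNRNPH2) and 0 in the other comparisons. Of the called genes of the other lists, the calls of WDR75 and MRPL2 in shGATA3 and of EEF2 were also lost without a filter, with the replicate block and with the 4 arrays compared alone. WDR75 in shTCF1 was lost without a filter and with the block, and RIOK2, POLR1B and, in shGATA3, MYC without a filter. With the deposited matrix none of them was called. A block for the slide was not possible, since there was 1 slide.

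The median difference turned to −0.040 (shGATA3) and −0.043 (shTCF1) after quantile normalization and to −0.045 and −0.055 after normexp. It was 0.11 for shTCF1 with the matrix, and leaving out 1 array gave 0.029 to 0.27 for shGATA3. Of the differences of named genes, 57 by 1 setting each are listed here because their sign turned, and the others kept it. After quantile normalization they were, for shGATA3, RPL10L −0.068, RPL5 −0.13, RPL11 −0.13, RPS14 −0.040 and RPS2 −0.080, and for shTCF1, RPL36AL −0.21, RPL22 −0.043, RPL5 −0.17, RPL11 −0.23, RPS19 −0.034, RPSA −0.21 and RPS2 −0.13. After normexp they were, for shGATA3, RPL10L −0.064, RPL5 −0.072 and RPL11 −0.16, and for shTCF1, RPL36AL −0.16, RPL22 −0.051, RPL5 −0.13, RPL11 −0.28, RPS19 −0.062 and RPSA −0.28. RPL36AL and RPSA in shGATA3 were 0.029 and 0.041 after 75th percentile scaling and 0.025 and 0.037 after median centring. With the matrix they were, for shGATA3, RPL22L1 4.22, RPL22 0.87, RPL5 −0.14, RPL11 −0.0085, RPS14 −0.15, RPS2 −0.0048, RPS19BP1 3.32 and RPL17 4.88, and for shTCF1, RPL22L1 3.75, RPL36AL −0.23, RPL39L 2.23, RPL5 −0.010, RPL11 −0.16, RPSA −0.42, RPS19BP1 2.85, RPL17 4.68, RIOK2 0.38 and MYC 0.12. Leaving out 1 array gave, for shGATA3, RPL10L −0.18 to 0.32, RPL11 −0.024 to 0.11, RPL17 −0.29 to 0.10, RPL22L1 −0.39 to 0.12, RPL26L1 −0.076 to 0.24, RPL36AL −0.072 to 0.031, RPS14 −0.015 to 0.30, RPS19BP1 −0.36 to 0.0054 and RPSA −0.12 to 0.11, and for shTCF1, RPL22 −0.024 to 0.13, RPL36AL −0.026 to 0.062, RPL5 −0.028 to 0.29 and RPSA −0.17 to 0.21.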
